A study of Homo sapiens with 8 samples.

Results

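CCNA2, MKI67, CEP55 and BUB3 are 4 genes of cell division, and they were chosen by name, as genes with regions of eIF4G2-bound RNA in the lists deposited for control and for overexpressing cells. A region counted for a gene when it lay inside the gene, overlapped its start or end, or contained it. The 4 genes carried 18 of the 3210 regions, 11 of 1986 with overexpression and 7 of 1224 in controls, and were 4 of the 861 genes listed in all. The genes were picked with these regions in view, so their presence in both lists is how they were chosen and not a result. Presence in both was found for 244 of the 861 genes (28.3%), for 225 of 473 on chromosome 4 (47.6%), where CCNA2 lies, and for 16 of 103 on chromosome 10 (15.5%), where the other 3 lie.

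The regions come from RIP-seq, in which RNA bound to a protein is pulled down with an antibody and sequenced, done here with an antibody against eIF4G2 in IHCF, human cardiac fibroblasts that have been immortalized. They had been infected with a lentiviral vector for full-length eIF4G2 (overexpression) or with a scramble control vector (control), and all were grown in DMEM with serum and insulin. Each condition has 2 replicates of eIF4G2-bound RNA and 2 of total RNA, 8 libraries in all, and the tables hold 1 list of regions per condition. They give positions on GRCh38 with no strand, read count, score or value per replicate, so depth is unknown and differences between the lists could not be set against the spread of replicates. Absence of a region does not show that a gene's RNA was not bound. Only the names of the tables tie a list to a condition, and these names also hold mov10, which no label explains. MOV10 is the name of a protein, but whether that is meant is not known.

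eIF4G2 (DAP5) resembles part of the initiation factor eIF4G1 but does not bind the cap-binding protein, and it helps ribosomes start on certain mRNAs. Cyclin A2 (CCNA2) is the cyclin that drives S phase and entry into mitosis with CDK2 and CDK1. Ki-67 (MKI67) coats mitotic chromosomes and is the standard marker of proliferating cells. BUB3 is a WD-repeat protein of the spindle assembly checkpoint, which holds back anaphase until chromosomes are attached, and CEP55 recruits the machinery that cuts the bridge between daughter cells at the end of division. Activated fibroblasts can divide as well as deposit matrix.

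CCNA2 lies on the minus strand of chromosome 4 at 121816444 to 121823883 (ENSG00000145386, 7440 bp, coordinates of the files and of RefSeq GRCh38.p14). In the overexpression list it had 2 regions, at 121817926 to 121821000 (3075 bp) and at 121821401 to 121822000 (600 bp). In the control list it had 4 regions, at 121814801 to 121819215 (4415 bp), 121819401 to 121821580 (2180 bp), 121821796 to 121823000 (1205 bp) and 121823601 to 121824200 (600 bp). The overexpression regions lay within the gene and reached neither end, while the control regions ran past both. A region over the gene's end was listed for 29.5% of the coding genes of chromosome 4 in the overexpression list and for 44.4% of those in the control list. Within the gene, 49.4% of the bases were covered with overexpression and 86.6% in controls.

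The outermost CCNA2 regions of the overexpression list enclosed 4075 bp, of which 3675 bp were covered in that list and, over a partly different set of bases, 3675 bp in the control list. The rest of the control coverage lay outside, with 1600 bp towards the start of the gene and 3125 bp towards and beyond its end. The lists shared 3275 bp, which was 89.1% of the overexpression coverage and 39.0% of the control coverage. Over the 225 genes of chromosome 4 with regions in both lists, the median shares were 69.6% of the overexpression and 37.8% of the control coverage.

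The control region at the start of CCNA2 reached from 282 bp inside the gene to 317 bp before it. It covered the whole of the upstream promoter window, and the overexpression list had no region there. Of listed coding genes of chromosome 4 with such a window, 15 of 300 had it wholly covered in controls (5.00%), and 6 of 194 with overexpression (3.09%). The window of CCNA2 is shown because a region over the start is uncommon: 10 of 210 coding genes of chromosome 4 listed with overexpression had one (4.76%), and 32 of 331 in controls (9.67%). The 250 bases before the start, chr4:121823884-121824133 on the minus strand of GRCh38.p14 from RefSeq, read 5′ to 3′ as follows, with motif matches in capitals.
CCNA2: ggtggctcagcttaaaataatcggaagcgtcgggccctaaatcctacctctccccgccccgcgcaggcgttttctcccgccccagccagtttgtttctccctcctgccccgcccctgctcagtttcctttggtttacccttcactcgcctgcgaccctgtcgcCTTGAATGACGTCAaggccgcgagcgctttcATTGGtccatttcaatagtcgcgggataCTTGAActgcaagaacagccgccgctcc
The motifs searched on both strands were the cAMP response element TGACGTCA, the CCAAT box, and the cell cycle genes homology region as CTTGAA or TTTGAA. The window held TGACGTCA once, a CCAAT box on the opposite strand, and CTTGAA at 2 places, 1 of them directly before TGACGTCA. Of 35116 RefSeq windows of this length, 1.65% held TGACGTCA, 32.0% CCAAT, 9.52% CTTGAA and 13.3% TTTGAA. These matches describe the letters of the window and say nothing about binding of a factor.

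The neighbours of CCNA2 lie close. EXOSC9, a subunit of the RNA exosome, is encoded on the opposite strand and its end overlaps that of CCNA2 by 578 bp. The widest control region (4415 bp) lay over both genes and, with no strand, cannot be given to either. A further control region of 1075 bp at 121824591 to 121825665 lay over BBS7, a Bardet-Biedl syndrome gene that ends 445 bp before the start of CCNA2, and was not counted for CCNA2. The nearest other overexpression region was 13354 bp from CCNA2, over EXOSC9.

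MKI67 lies on the minus strand of chromosome 10 at 128096659 to 128126423 (ENSG00000148773, 29765 bp). In the overexpression list it had 6 regions, of 820, 820, 1845, 1025, 2665 and 205 bp in the direction of transcription. They began 20078 bp from the start of the gene and stopped 52 bp before its end, which left the first 67.5% of the gene without a region. The gap before the widest region was 1435 bp, and the other 4 gaps were 205 bp each. In the control list MKI67 had 1 region, at 128097736 to 128099580 (1845 bp).

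That control region lay wholly inside the widest of the overexpression regions, at 128097121 to 128099785 (2665 bp), which went beyond it by 205 bp on the 5′ side and 615 bp on the 3′ side. The remaining 5 overexpression regions of MKI67 met no control region. Of the 85 genes of chromosome 10 in the overexpression list, MKI67 had the largest summed width (7380 bp, against a median of 2255 bp) and shared the highest number of regions with 2 other genes. Among the 34 control genes of the chromosome it ranked 3 by summed width (1845 bp, median 1230 bp).

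CEP55 lies on the plus strand of chromosome 10 at 93496612 to 93529092 (ENSG00000138180, 32481 bp) and had 1 region in each list, both at its 3′ end. The overexpression region, at 93528176 to 93529610 (1435 bp), ran 518 bp past the end of the gene. The control region, at 93528381 to 93528995 (615 bp), stopped 97 bp before it and lay wholly inside the overexpression region. Of the coding genes of chromosome 10, 33 of 67 with overexpression regions (49.3%) and 10 of 30 with control regions (33.3%) had one over the end of the gene. The regions covered 2.82% of the gene with overexpression and 1.89% in controls.

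BUB3 lies on the plus strand of chromosome 10 at 123154402 to 123170467 (ENSG00000154473, 16066 bp). It had 2 overexpression regions, at 123163386 to 123163795 (410 bp) and at 123164411 to 123166255 (1845 bp), and 1 control region, at 123164411 to 123165845 (1435 bp). The control region began at the same base as the wider overexpression region, which went on for 410 bp more. BUB3 has transcripts of different length. Both regions at this position lay over the ends of the shorter transcripts ENST00000368859 and ENST00000368858, passing them by 1043 and 890 bp with overexpression and by 633 and 480 bp in controls. The longest transcript, ENST00000368865, went on for 4212 bp beyond the overexpression region and 4622 bp beyond the control region.

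**Figure D1:**
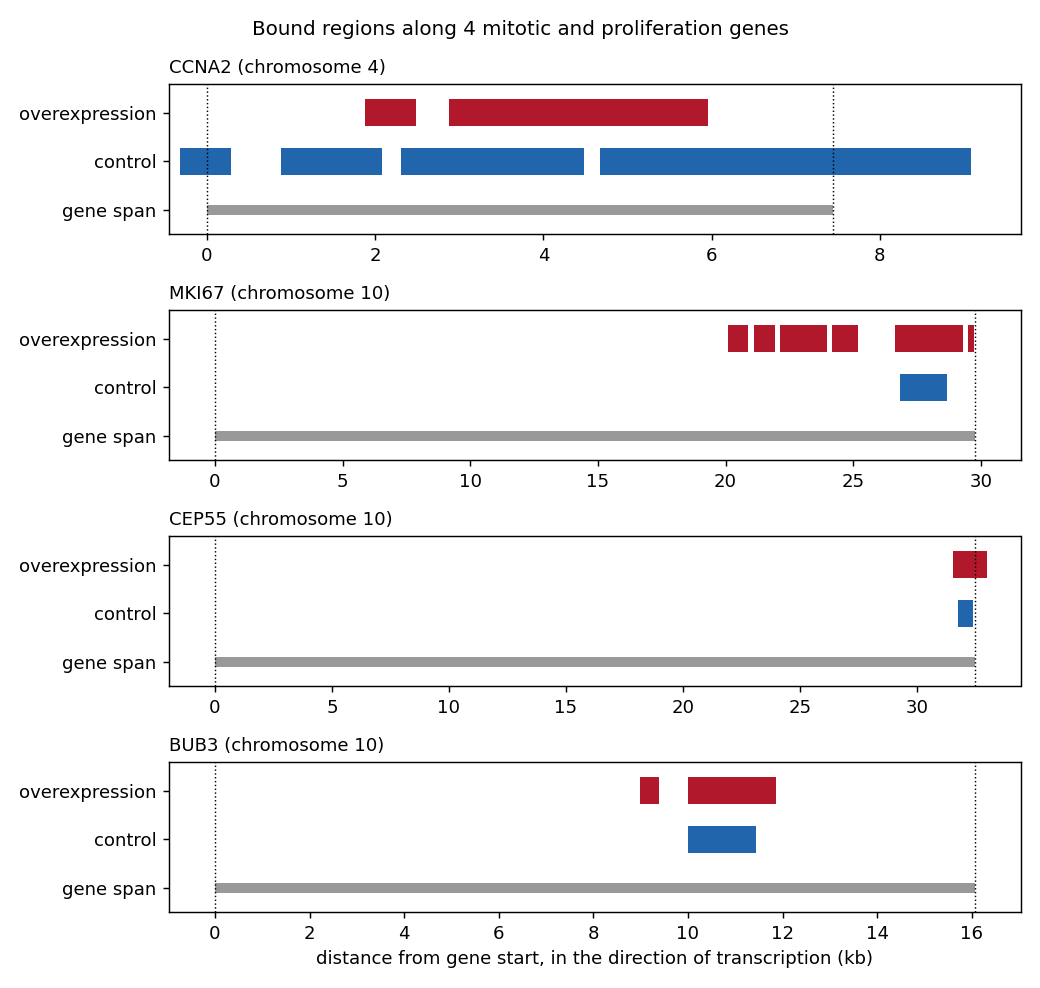
Bound regions along CCNA2, MKI67, CEP55 and BUB3, drawn to scale against the distance in kb from the start of each gene in the direction of transcription, with the overexpression list (red) above the control list (blue) and the gene span (grey) between dotted lines. The 3 control regions of the chromosome 10 genes each lie under 1 wider overexpression region, and the control regions of CCNA2 pass both ends of the gene.

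On chromosome 10 the ends of all 121 overexpression and 29 control regions fell on a grid of 205 bp, so every edge of an MKI67, CEP55 or BUB3 region is known to 1 bin at best. In these bins the overexpression region exceeded the control region by 1 bin on the 5′ side and 3 bins on the 3′ side for MKI67 and CEP55, and by 0 and 2 bins for BUB3. On the chromosome, 10 such pairs had a control region over genes of 1 strand. Other genes under the overexpression region of a pair were not checked for strand, so its reach may lie over another gene. A longer reach on the 3′ side was found in 5 of the 10 pairs, the reverse in 3, and equal reach in 2. These 5 include MKI67, CEP55 and BUB3. Of the other pairs, those of CUEDC2 and CTBP2 reached further on the 3′ side and those of PPIF, MMS19 and NOLC1 on the 5′ side. Those of P4HA1 and ZDHHC16 were equal. On chromosome 4 all ends fell on a grid of 200 or of 215 bp, and CCNA2 regions had ends on each.

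All 3 control regions of MKI67, CEP55 and BUB3 lay wholly inside an overexpression region. Since these genes were chosen with regions in both lists, overlap was nearly fixed by the choice, and the other genes in both lists are the closer background. Over the 16 such genes of chromosome 10, 12 of 13 control regions lay wholly inside an overexpression region (92.3%), and 15 of the 16 genes had all their control bases shared. Of all 29 control regions of the chromosome, 12 did so (41.4%, 95% Wilson interval 25.5 to 59.3), and these were all that overlapped an overexpression region at all. The reverse, an overexpression region inside a control region, was found in 0 of 121. Of the 9 overexpression regions of MKI67, CEP55 and BUB3, 3 overlapped a control region, as did 12 of the 27 over the 16 genes (44.4%) and 12 of 121 over the chromosome (9.92%). For CCNA2, 2 of 2 overexpression regions and 3 of 4 control regions overlapped the other list by at least 1 bp, and none lay wholly inside 1 region of it. Over the 225 genes of chromosome 4 in both lists, 71.9% of overexpression and 40.6% of control regions overlapped the other list, and 31.2% of overexpression and 10.5% of control regions lay wholly inside 1 region of it. Over all regions of chromosome 4, 65.0% of overexpression and 25.5% of control regions overlapped, and 27.7% of overexpression and 6.58% of control regions lay wholly inside.

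**Figure D2:**
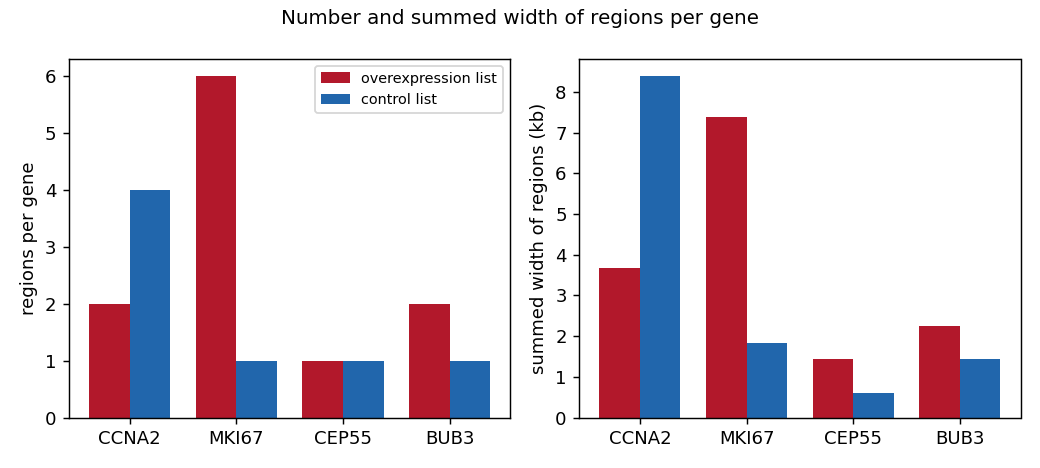
Number of regions per gene (left) and their summed width in kb (right) for the overexpression list (red) and the control list (blue), 1 list per condition and no error bars because there are no replicate values. MKI67 has 6 overexpression regions and 1 control region, CCNA2 has 2 overexpression and 4 control regions, BUB3 has 2 overexpression regions and 1 control region, and CEP55 has 1 in each list.

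The summed width of the regions of a gene describes how much of it was listed and is no measure of bound RNA. CCNA2 had 3675 bp with overexpression and 8400 bp in controls, a ratio of 0.44. MKI67 had 7380 bp with overexpression and 1845 bp in controls (ratio 4). CEP55 had 1435 bp with overexpression and 615 bp in controls (ratio 2.33), and BUB3 2255 bp with overexpression and 1435 bp in controls (ratio 1.57). The covered length of the whole of chromosome 4 had a ratio of 0.418 and that of chromosome 10 a ratio of 4.40, so the direction of each gene turned when widths were taken as a share of its chromosome, to 1.05 for CCNA2, 0.909 for MKI67, 0.530 for CEP55 and 0.357 for BUB3. No direction for a gene apart from its chromosome follows from these ratios.

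Among genes with regions in both lists, 57 of 225 on chromosome 4 were wider with overexpression (25.3%) and 167 in controls (74.2%), with a median ratio of 0.598. Of these 225, 80 had a lower ratio than CCNA2. On chromosome 10, 15 of 16 were wider with overexpression (93.8%), 0 in controls and 1, CXCL12, equal, with a median of 1.60. MKI67 shared rank 2 there with CUEDC2, below MMS19 (4.75), CEP55 had rank 5 and BUB3 rank 10. Without the control region that also lies over EXOSC9, the ratio of CCNA2 was 0.922. With only the widest region of each gene, MKI67 had 2665 bp with overexpression and 1845 bp in controls (ratio 1.44). With only the part within the gene, CEP55 had 917 bp with overexpression and 615 bp in controls (ratio 1.49).

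**Figure D3:**
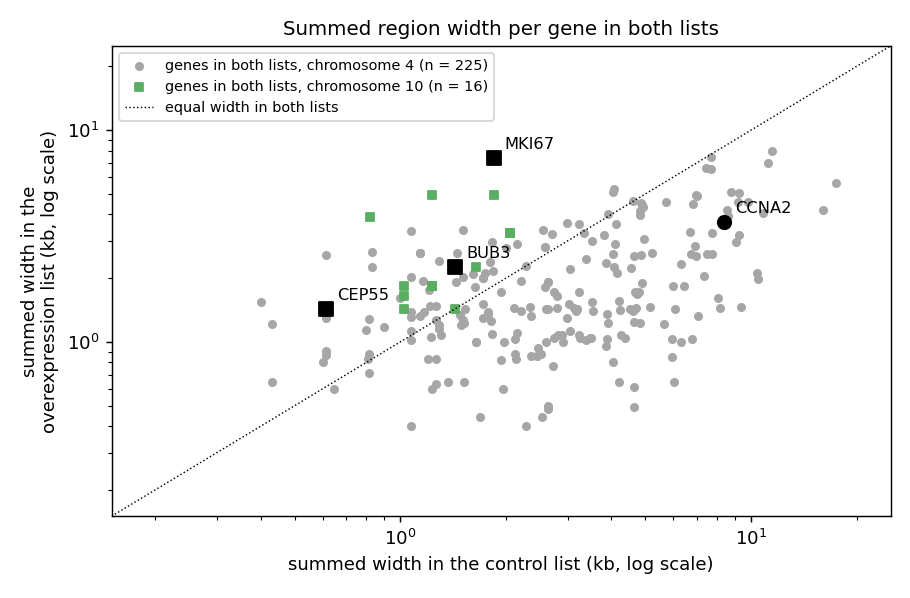
Summed region width per gene in the overexpression list (vertical, kb, log scale) against the control list (horizontal, kb, log scale) for the genes with regions in both lists on chromosome 4 (grey circles, n = 225) and chromosome 10 (green squares, n = 16). The 4 named genes are in black; CCNA2 lies below the line of equal width with most of chromosome 4, and MKI67, CEP55 and BUB3 lie above it with the other genes of chromosome 10 except CXCL12, which lies on it.

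The genes most like each of these by summed width in the 2 lists (distance on the log2 scale, named genes of the same chromosome) were as follows. For CCNA2 they were the RNA-binding protein gene HNRNPD (3935 bp with overexpression and 8600 bp in controls, distance 0.10), NOP14-AS1 (0.19) and the purine synthesis gene PAICS (0.21). For BUB3 they were PPIF, a mitochondrial cyclophilin (2255 bp with overexpression and 1640 bp in controls, 0.19), FRMD4A (0.37) and the nucleolar protein gene NOLC1 (0.57). For MKI67 and CEP55 the nearest gene was farther away than for CCNA2 and BUB3. Chromosome 10 has only 16 genes in both lists, against 225 on chromosome 4, and nearest distances of other genes were not compared. The nearest to MKI67 was the corepressor gene CTBP2 (4920 bp with overexpression and 1845 bp in controls, 0.58), followed by CUEDC2 (0.83) and, equally distant, CALHM2 and PDCD11 (1.18), which share their region in each list. The nearest to CEP55 was the collagen prolyl hydroxylase gene P4HA1 (1435 bp with overexpression and 1025 bp in controls, 0.74), followed by ZDHHC16 (0.76) and NOLC1 (0.82). This measure rests on 2 values per gene.

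By position, 8 of the 11 overexpression regions of the 4 genes and 4 of the 7 control regions had their midpoint in the last 33.3% of the gene. The 8 include all 6 overexpression regions of MKI67, so this count rests mostly on 1 gene. For the background, a region was counted once for each coding gene it lay over. A midpoint in that last part was found for 68.5% of overexpression and 62.7% of control pairs of region and gene on chromosome 4. On chromosome 10 it was found for 76.8% of overexpression and 90.9% of control pairs. The exceptions were both overexpression regions and 3 of the control regions of CCNA2, and the narrow overexpression region of BUB3, at 57.2% of the gene. The control region of BUB3, at 66.8%, lay just inside that last part. Taken per transcript and not per gene, the overexpression count was 7 if all transcripts, and 9 if any, had to place the midpoint there. The control count stayed at 4 in both cases. Exons were not annotated in the sources used here, so these positions run over introns as well.

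To place the 4 genes among others of their kind, 212 genes of the cell cycle were grouped by role, a list written with earlier results of these data known. Chromosomes 4, 10 and 18 hold 1951 of the 1986 overexpression regions and 1214 of the 1224 control regions, so few genes elsewhere were listed, and none of the 167 list genes elsewhere was. On chromosome 4, 12 of 19 list genes were listed with overexpression, 16 in controls and 11 in both. Each of these counts includes CCNA2, which was chosen with its regions in view. As the whole list was written with earlier results known, a higher share than among all coding genes is not a result. Among all 769 coding genes of that chromosome, 210 (27.3%) were listed with overexpression, 331 (43.0%) in controls and 185 (24.1%) in both. The median length was 33.9 kb for the 19 genes and 43.4 kb for all coding genes of the chromosome. How strongly the genes are expressed was not measured in the tables, and its part in these counts was not tested.

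The other cyclins of chromosome 4 were in both lists. CCNI, an atypical cyclin, had 5 overexpression regions (4570 bp) and 11 control regions (9155 bp), and CCNG2, a cyclin linked to cell cycle arrest, 1 overexpression region (880 bp) and 2 control regions (815 bp). Of the spindle genes, TACC3, which stabilises spindle microtubules, had 6 overexpression regions (4210 bp) and 11 control regions (16050 bp), the largest control sum among the 212 cell cycle genes, although some lie over TMEM129 too. HAUS3, an augmin subunit whose regions also touch POLN, had 860 bp with overexpression and 2460 bp in controls, and the centriole protein gene CEP135 2105 bp with overexpression and 1745 bp in controls. The kinetochore motor gene CENPE had 7 overexpression regions (6535 bp) and 13 control regions (7715 bp).

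Among genes of chromosome structure, NCAPG, a condensin subunit, had 6 overexpression regions (5110 bp) and 9 control regions (4050 bp), some over LCORL as well, and PDS5A, a cohesin regulator, 1245 bp with overexpression and 4630 bp in controls. RFC1, the large subunit of the clamp loader of DNA replication, had 2320 bp with overexpression and 6335 bp in controls, and SEPTIN11, a septin, 1985 bp with overexpression and 10505 bp in controls. Of the 11 list genes in both lists 3 were wider with overexpression (NCAPG, CEP135 and CCNG2) and 8 in controls, with a median ratio of 0.44, and CCNA2 was itself that median gene. For all shared genes of the chromosome the median was 0.598.

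Among checkpoint genes, MAD2L1, which works with BUB3 in the mitotic checkpoint complex, had 2 control regions (615 bp) and none in the overexpression list, and ANAPC4, a subunit of the anaphase-promoting complex that the checkpoint inhibits, had 5 control regions (1555 bp) and none. The centriole kinase gene PLK4 (1200 bp), the chromatin protein gene HMGB2 (1505 bp) and the centromere gene CENPU (2610 bp, in part over PRIMPOL) were also in the control list only. CENPC, a centromere protein, had 1 overexpression region (430 bp) and none in the control list. Of the 19 list genes, 12 were in the overexpression list and 11 in both. Of the 769 coding genes, 210 were in the overexpression list and 185 in both. Across the chromosome 146 of 769 coding genes were in the control list only (19.0%), and 5 of the 19 list genes were. Counting also those in both lists, 331 of the 769 coding genes and 16 of the 19 list genes were in the control list. H2AZ1 and ANAPC10 had none in either list.

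On chromosome 10, MKI67, CEP55 and BUB3 were the only list genes with a region, 3 of 17, each in both lists. They were chosen with these regions in view, so this count was fixed by the choice and is not a result. Of 734 coding genes, 67 (9.13%) were listed with overexpression, 30 (4.09%) in controls and 14 (1.91%) in both. The 14 list genes with none included the mitotic kinase genes CDK1 and MASTL, the motor genes KIF11 and KIF20B, the cohesin genes SMC3 and WAPL, the kinetochore gene ZWINT and the replication genes MCM10, MCMBP and HELLS. The nearest overexpression region outside each gene was 2253 kb from MKI67, 1708 kb from CEP55 and 1814 kb from BUB3. The nearest control region was 3107, 189 and 1818 kb away, in the same order. Chromosome 10 holds only 121 overexpression and 29 control regions, and the same distances for other genes were not measured.

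On chromosome 18, which has no region in the control list, 8 of 9 list genes had an overexpression region, as did 162 of 270 coding genes (60.0%). Their summed widths ran from 1195 bp for VPS4B, an ATPase of abscission, to 8830 bp for the kinetochore gene NDC80, with TYMS, thymidylate synthase, at 6100 bp in part over ENOSF1, CEP76 at 5490 bp in part over PSMG2, SKA1 at 3160 bp, MAPRE2 at 2810 bp, CEP192 at 1680 bp and HAUS1 at 1295 bp. ESCO1 had none.

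**Figure D4:**
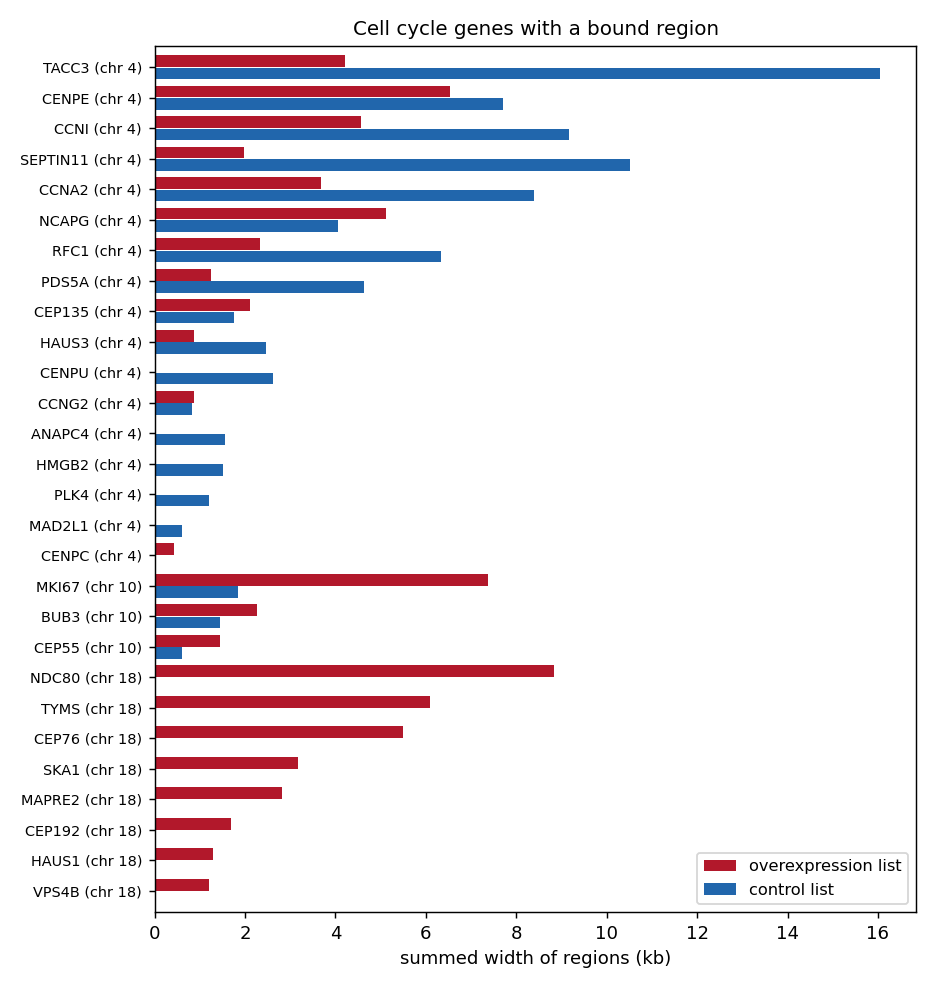
Summed width of regions in kb for the 28 genes of the cell cycle list with any region, ordered by chromosome, with the overexpression list (red) above the control list (blue) for each gene. Genes of chromosome 18 have overexpression bars only. Of the chromosome 4 genes shown, most have the longer bar in the control list, as do most genes of that chromosome with regions in both lists.

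None of 10 fibroblast markers (COL1A1, VIM and the like), 3 endothelial, 3 macrophage and 3 cardiomyocyte markers had a region. Of these 19, 3 lie on chromosomes 4, 10 or 18, namely the fibroblast markers PDGFRA and VIM and the endothelial marker KDR. With so few, and as absence of a region does not show that RNA was not bound, the lists cannot be used to check the cell type.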

How the data were processed

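RNA pulled down with an antibody to eIF4G2, after DNase treatment and poly(A) selection, was sequenced from both ends, per the labels' protocols and the series' design. Tools in the submitters' processing notes are HISAT2 2.1.0, Trimmomatic 0.36 and bcl2fastq 2.19.0, with the build GRCh38. How regions were called, against which background, and whether replicates were pooled is not given in the sources used here. Each condition has 1 table that the authors deposited, in which region positions, widths and distances are in bp, not normalized, per the file headers. Depth is unknown for every library, and with no value per sample no test was possible.

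Each region was counted once per gene, by Ensembl identifier. Regions were compared by an overlap of at least 1 bp, tested on simulated regions. Gene spans came from RefSeq GRCh38.p14, which matched 725 of 733 named genes. The members, the cell cycle list and the motifs were chosen with earlier results of these data known. Genes named are the 4 members, list genes with a region, genes under their regions and the 3 genes nearest in summed width. BBS7, MMS19, CXCL12, PDCD11 and the list genes without a region were named after their values were seen. COL1A1, VIM, PDGFRA and KDR were named as markers of cell types. The software was Python 3.11.15 with scipy 1.17.1, numpy 2.4.6, pandas 2.3.3 and matplotlib 3.10.9.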

Additional observations from a re-analysis of the deposited data

How the results depend on the processing

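Regions of the 4 genes numbered 5 with overexpression and 4 in controls after merging up to 1000 bp, against 11 and 7 as listed; merging joined the 4 CCNA2 control regions to 1 and the 6 MKI67 overexpression regions to 2. Counting only regions wholly inside the annotated gene left 2 of the 4 CCNA2 control regions, as many as its overexpression regions, and 0 of the 1 CEP55 overexpression regions. With overlap of at least 50% of both regions, 3 overexpression and 3 control regions of the 4 genes were shared (5 and 6 at 1 bp), as were 30.1% of overexpression and 12.5% of control regions of chromosome 4. The ratio of summed width, overexpression over control, became 0.6965 for CCNA2 and 1.444 for MKI67 with the widest region alone, 0.9222 for CCNA2 with regions over no other named gene, and 1.491 for CEP55 within the gene. As shares of the covered bases of the chromosome, the ratios turned direction, to 1.046 for CCNA2, 0.9093 for MKI67, 0.5304 for CEP55 and 0.3572 for BUB3, which follows from dividing by chromosome ratios of 0.418 and 4.40. The counts of cell cycle genes per chromosome stayed within 1.5 times with nearest genes, with regions of at least 400 bp and with regions over no other named gene. No paired analysis was possible because the tables hold no value per replicate, and for the same reason no replicate could be left out. Depth limits are unknown.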
